A study of Rattus norvegicus with 8 samples.

Results

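The p53 growth arrest genes Gadd45a, Mdm2, Cdkn1a and Ccng1 were measured in rat PC12 cells with and without induction of a mutant fragment of huntingtin. They were chosen by symbol, taking every probe set that the array's annotation assigns to 1 of these 4 genes alone, which gave 11 of the 8799 probe sets on the array and 4 of the 4737 genes with a probe set of their own. The 4 genes were picked with earlier results of these data known, so their share of calls is not that of genes picked beforehand. PC12 derives from a pheochromocytoma, a tumour of the rat adrenal medulla, and the subline used was Htt14A2.5. All 8 samples belong to this subline and carry an inducible truncated exon 1 of human huntingtin in mutant form. In 4 samples, titled +PA, expression was induced with ponasterone, a steroid, for 48 h. The other 4, titled -PA, were uninduced. The description attached to every sample mentions the induction, so the titles alone set the groups. No group had ponasterone without the transgene, so the inducer and its product cannot be told apart. Replicate 2 of both groups has a source label worded differently from the rest. Each sample was read on 1 array, and no label says that replicates came from separate cultures, so p-values measure only the spread between these samples, which may be technical.

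p53 is a transcription factor that is stabilised by DNA damage and other stress. Cdkn1a encodes p21, which binds and blocks cyclin-dependent kinases and also binds the replication clamp PCNA. Gadd45a encodes a small stress protein that binds PCNA, p21 and the mitotic kinase Cdk1 and activates the stress kinase MAP3K4. Mdm2 is the ubiquitin ligase that marks p53 for degradation and so closes a feedback loop, and Ccng1 encodes cyclin G1, which recruits protein phosphatase 2A to Mdm2. Each of the 4 is a well-known p53 target, and Gadd45a and Cdkn1a are also induced without p53 by other stress and growth factors.

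The RefSeq promoter table (assembly GRCr8) held a window for each of the 4 genes. The 250 bases before each start site were searched for p53 sites, since all 4 genes are known p53 targets. A site found there is therefore no result of the induction. A p53 site is a pair of half-sites, and the consensus p53 half-site was sought on both strands in all 33469 windows of the table. The windows of Gadd45a, Cdkn1a and Ccng1 each held a perfect half-site, as did 6.64% of all windows, and that of Mdm2 held 0. In Cdkn1a and Ccng1 the half-site stood directly beside a second one, with 1 mismatch in the pair at a base other than the conserved C and G. Such adjacency was rare: 15 of the 33469 windows (0.0448%) held a pair of this kind. The sequences are printed to show these sites, 5′ to 3′ on the strand of the gene, with the half-site of Gadd45a and the adjacent pairs of Cdkn1a and Ccng1 in capitals.
Cdkn1a, chr20:7150682-7150931, plus strand: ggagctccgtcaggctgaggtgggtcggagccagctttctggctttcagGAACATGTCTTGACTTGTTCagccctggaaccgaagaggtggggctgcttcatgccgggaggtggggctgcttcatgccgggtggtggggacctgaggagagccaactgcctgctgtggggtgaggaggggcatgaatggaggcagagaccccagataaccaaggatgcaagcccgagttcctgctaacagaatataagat
Ccng1, chr10:25684877-25685126, minus strand: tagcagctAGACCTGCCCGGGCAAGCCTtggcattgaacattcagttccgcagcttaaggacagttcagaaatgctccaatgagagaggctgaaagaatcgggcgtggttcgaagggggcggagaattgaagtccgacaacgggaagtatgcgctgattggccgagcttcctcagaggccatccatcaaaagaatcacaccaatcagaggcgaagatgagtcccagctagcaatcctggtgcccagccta
Gadd45a, chr4:97486800-97487049, minus strand: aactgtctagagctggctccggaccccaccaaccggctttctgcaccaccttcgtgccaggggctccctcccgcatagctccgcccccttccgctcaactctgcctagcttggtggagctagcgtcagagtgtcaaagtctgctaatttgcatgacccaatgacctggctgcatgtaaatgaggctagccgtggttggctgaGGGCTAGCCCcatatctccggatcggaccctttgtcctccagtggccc

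The Cdkn1a pair, GAACATGTCTTGACTTGTTC, lay 201 to 182 bases before the start site used by the table, which is 112 bases inside the outermost end of that gene model. The Ccng1 pair, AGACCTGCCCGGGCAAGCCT, lay 242 to 223 bases before its start. With a spacer of up to 13 bases allowed, 0.427% of windows held a pair with at most 1 mismatch, and Gadd45a joined them with a pair spaced by 11 bases that ended 39 bases before its start. The Gadd45a window also held an octamer, ATTTGCAT, 105 to 98 bases before the start, a motif found on either strand in 1.56% of windows. It overlapped no other motif searched. The p53 sites best known in Gadd45a and Mdm2, from human and mouse work, lie in introns. The Mdm2 start used by the table was 966 bases inside its gene model. The TATA box (TATAAA), the full CRE (TGACGTCA), the AP-1 site (TGANTCA) and an Egr site (GCGNGGGCG) matched none of the 4 windows on either strand, against 12.9%, 1.59%, 6.34% and 4.29% of all windows. The shorter CRE motif TGACG was found on either strand in the windows of Gadd45a, Mdm2 and Cdkn1a, against 18.2% of all windows. The GC box (GGGCGG) and the CCAAT box were each found in those of Gadd45a, Mdm2 and Ccng1, against 30.5% and 34.0%. A match is a string of letters, and no match says only that these letters are not in this window. The sources used here do not say which start of a gene is its main one. Distances and absences, also those of Cdkn1a, hold only for the start sites used here.

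All 4 genes rose on induction. Gadd45a rose 2.51-fold, Cdkn1a 1.97-fold, Mdm2 1.84-fold and Ccng1 1.43-fold by the brightest probe set of each. Values are scaled signals, and a fold is taken from log2 values after 7 was added to each signal. Differences are induced minus uninduced log2 values with the standard error of a limma fit over 6129 probe sets, and a call is an adjusted p under 0.05 after Benjamini-Hochberg adjustment over all of them. Of the 11 probe sets 10 passed the filter on low signal, and 8 of these 10 were called higher, 0 lower and 2 not called. Over all tested probe sets 7.06% were called, 4.10% higher and 2.97% lower, so that 58.0% of calls were higher (72.6% with each array centred on its median). In the same 8 the lowest induced array lay above the highest uninduced array, which 6.48% of tested probe sets showed, while 7.11% were apart the other way. In bulk RNA a change in the make-up of the cells and a change in the RNA per cell cannot be told apart.

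**Figure D1:**
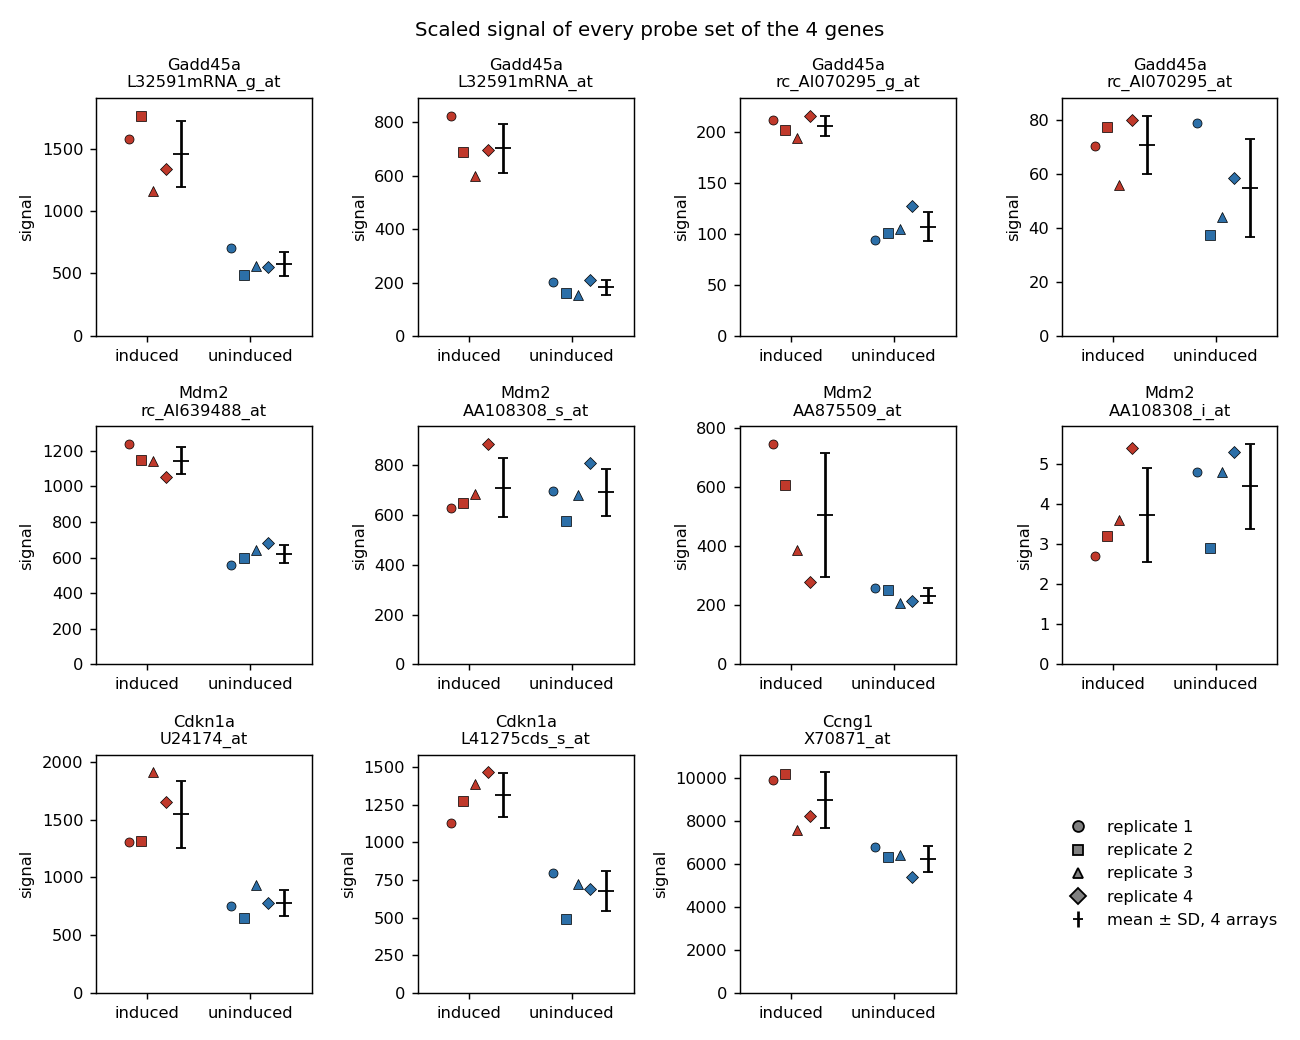
Scaled signal (vertical axes, each from 0) of the 11 probe sets of Gadd45a, Mdm2, Cdkn1a and Ccng1 on 4 induced (red) and 4 uninduced (blue) arrays, with the mean and SD beside the points and a marker shape for each replicate number. The groups are apart in 8 panels and overlap in those of rc_AI070295_at, AA108308_s_at and AA108308_i_at.

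The array summaries bear on these values as follows. The median signal was 97.5 to 134.9 on induced arrays and 106.3 to 127.0 on uninduced arrays. The 95th percentile of 38 background control probe sets was 102 to 137 on induced arrays and 128 to 183 on uninduced arrays. For Gapdh, the control probe set at the 3' end exceeded the one at the 5' end by 0.39 to 0.56 on induced and 0.20 to 0.50 on uninduced arrays, on the log2 scale. For hexokinase this difference was 0.50 to 1.14 on induced and 0.87 to 1.37 on uninduced arrays. For beta-actin it was -0.67 on induced replicate 3, and 0.22 to 0.58 on the other induced and 0.08 to 0.57 on the uninduced arrays. Of the chromaffin cell markers listed 12 had a probe set and 9 were tested, of which Ret was called higher and Phox2a and Gata3 lower; the summed signal was 17608 to 19833 on induced and 18167 to 22142 on uninduced arrays. Chgb, a granin of dense-core granules, had a signal of 12195 ± 625 in induced and 10991 ± 1780 in uninduced cells (SD, n = 4 each). Dbh and Ddc, enzymes of catecholamine synthesis, lay below the filter, and Th, the first of that pathway, had signals of 52.3 ± 28.3 in induced and 69.98 ± 62.9 in uninduced cells, below the background controls on average. Among tested markers of other cell types, 1 of 9 fibroblast genes (Col5a1) and 1 of 6 Schwann cell and glial genes (Pmp22) were called higher by the brightest probe set, and 0 of 4 leukocyte genes and 0 of 1 adrenal cortex gene were called. Col1a1, a fibrillar collagen of the fibroblast list, was not called on its brightest probe set (0.13), but rose by 1.05 and 0.71 on the log2 scale on 2 dimmer ones (limma adjusted p = 0.0300 and 0.0244). The summed signal of the fibroblast genes was 7633 to 8947 on induced and 6164 to 7549 on uninduced arrays, and that of the Schwann cell and glial genes 1110 to 1256 on induced and 912 to 1256 on uninduced arrays. Of the fibroblast genes, the brightest probe sets of Col1a1, Col3a1, Col5a1 and Thy1 were above the background controls on all 8 arrays. Those of Col1a2, Fn1 and Pdgfra were above them on 0 of the 8 arrays and that of Dcn on 1. Pdgfrb was above them on 1 induced and 1 uninduced array, and Lum lay below the filter. The part of other cells in the results was not tested.

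Gadd45a, the stress sensor, had the 2 largest rises among the member probe sets. Probe set L32591mRNA_g_at read 1574.6, 1763.9, 1160.8 and 1337.6 on induced arrays, against 706.1, 485.7, 559.4 and 548.7 on uninduced arrays. The groups were far apart, with induced replicate 3 the lowest of its group and uninduced replicate 1 the highest of its own. The log2 difference was 1.33 ± 0.15 (limma adjusted p = 0.00020). Probe set L32591mRNA_at, designed from the same deposited sequence, read 824.8, 688.3, 600.2 and 695.2 on induced arrays, against 203.6, 160.9, 153.5 and 207.8 on uninduced arrays. The lowest induced signal was well above the highest uninduced one here too. It rose 3.77-fold, by 1.92 ± 0.16 on the log2 scale (limma adjusted p = 1.7e-05). This ranked 22 among the 6129 tested probe sets, ordered from the largest rise to the largest fall.

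A further pair of Gadd45a probe sets came from another deposited sequence and was dimmer. Probe set rc_AI070295_g_at read 210.9, 201.6, 193.5 and 215.6 on induced arrays, against 93.9, 101.2, 105.0 and 127.0 on uninduced arrays. It rose by 0.91 ± 0.19 (limma adjusted p = 0.0116), with all 4 induced arrays above and all 4 uninduced arrays below the background controls' 95th percentile of their own array, so the size of this rise depends on the background. Its partner rc_AI070295_at read 70.4, 77.1, 55.7 and 79.7 on induced arrays, against 78.6, 37.5, 44.1 and 58.5 on uninduced arrays. These groups overlapped, all 8 signals were below the background controls' 95th percentile, and the difference of 0.37 ± 0.32 was not called (limma adjusted p = 0.635). In all, 3 of the 4 Gadd45a probe sets rose.

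Cdkn1a, the kinase inhibitor p21, rose on both of its probe sets. U24174_at read 1306.7, 1316.2, 1908.8 and 1656.8 on induced arrays, against 753.6, 652.5, 931.2 and 778.4 on uninduced arrays. L41275cds_s_at, from the coding sequence, read 1130.0, 1277.9, 1388.9 and 1464.7 on induced arrays, against 798.3, 489.8, 725.0 and 689.8 on uninduced arrays. No uninduced array reached the lowest induced one on either probe set. The log2 differences were 0.98 ± 0.15 (limma adjusted p = 0.0015) and 0.97 ± 0.15 (limma adjusted p = 0.0018). The 2 probe sets came from different deposited sequences, and their rises differed by 0.0069 ± 0.14 on the log2 scale (two-sided exact permutation p = 0.971).

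Mdm2, the ubiquitin ligase of p53, rose on 2 of its 4 probe sets. The brightest, rc_AI639488_at, read 1238.3, 1148.4, 1143.5 and 1052.6 on induced arrays, against 559.7, 596.2, 645.6 and 680.3 on uninduced arrays. Both groups were tight and far apart, and the log2 difference was 0.88 ± 0.11 (limma adjusted p = 0.00029). AA875509_at read 746.6, 607.9, 388.5 and 279.4 on induced arrays, against 260.3, 250.9, 207.1 and 214.9 on uninduced arrays. Its induced arrays spread widely, from 279.4, just above the uninduced arrays, to 746.6. It rose by 1.00 ± 0.26 (limma adjusted p = 0.0385), a call that 6 of the 8 fits without 1 array did not keep (adjusted p up to 0.114, without induced replicate 2). The fits that kept it left out induced replicate 3 or 4. It also ended with median centring (adjusted p = 0.128).

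The other Mdm2 probe sets were not called. AA108308_s_at read 626.5, 647.1, 683.3 and 885.1 on induced arrays, against 697.5, 577.1, 679.7 and 808.3 on uninduced arrays. The groups overlapped fully at a signal well above background, with a difference of 0.04 ± 0.14 (limma adjusted p = 0.943). AA108308_i_at read between 2.7 and 5.4 on induced arrays and between 2.9 and 5.3 on uninduced arrays, below the filter, and was not tested. In this array's names the ending s marks probes that match more than 1 transcript and i an incomplete probe set. Which Mdm2 transcripts, or which transcripts of other genes, each probe set reads is not given in the sources used here.

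Ccng1, cyclin G1, had 1 probe set and the smallest rise. X70871_at read 9920.7, 10215.9, 7576.0 and 8238.8 on induced arrays, against 6806.4, 6353.9, 6407.2 and 5387.4 on uninduced arrays. The groups did not overlap, but the lowest induced array was near the highest uninduced one. The log2 difference was 0.52 ± 0.11 (limma adjusted p = 0.0148). The call ended without induced replicate 1 (adjusted p = 0.0508), without induced replicate 2 (adjusted p = 0.0502) and without replicate 2 of both groups (adjusted p = 0.116). With median centring the difference was 0.56 and the adjusted p 0.178.

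**Figure D2:**
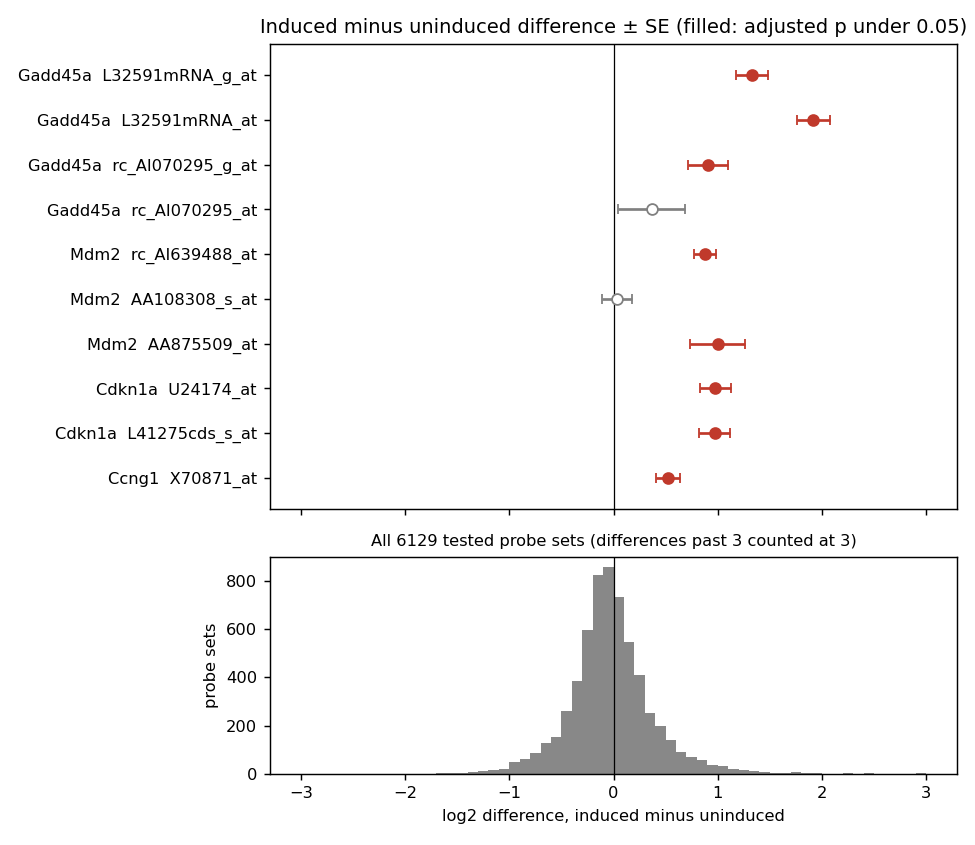
Upper panel, log2 difference (induced minus uninduced, ± SE) of the 10 tested probe sets of the 4 genes; lower panel, the number of all 6129 tested probe sets by log2 difference, on the same axis. The 8 called probe sets lie between 0.52 and 1.92, while all tested probe sets are centred near -0.05.

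The rises of different probe sets of 1 gene were compared by the log2 difference between them on each array, with a two-sided exact permutation test over the 70 splits of the arrays, whose smallest possible p is 0.0286. Of the 10 pairs of tested probe sets, 6 reached this p (adjusted p = 0.0476), but 4 of these 6 include rc_AI070295_at or rc_AI070295_g_at, whose signals were not above the background controls on all arrays. The log2 differences of those 2 probe sets depend on the background and their pairs show no size of an unequal rise. The other pairs at this p were L32591mRNA_g_at minus L32591mRNA_at in Gadd45a, at -0.59 ± 0.15, and rc_AI639488_at minus AA108308_s_at in Mdm2, at 0.84 ± 0.18. In both, the 4 induced arrays lay apart from the 4 uninduced ones. Their calls rest on the number of pairs: over the 5 pairs in which both probe sets were above background on all 8 arrays, the adjusted p was 0.0714 (exact permutation p = 0.0286). With 1, 16 or 50 added in place of 7, the adjusted p of the 6 pairs was 0.0571 to 0.0952. So no inequality between probe sets of 1 gene held its call under these alternatives, in a design in which a single pair cannot pass. A pair at the smallest p is called only if enough other pairs stand there too. A lost call therefore does not show that an inequality is absent. Over these alternatives the Mdm2 difference was 0.80 to 0.85 and the Gadd45a difference -0.61 to -0.43.

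Between genes, the 6 pairs of brightest probe sets were compared in the same way, a test in which a single pair at the smallest p cannot pass after adjustment. Gadd45a rose by 0.81 ± 0.11 more than Ccng1 on the log2 scale, and the 4 induced arrays lay apart from the 4 uninduced ones in this measure (exact permutation p = 0.0286, adjusted p = 0.171). Without 1 array this difference was 0.72 to 0.87, far above its standard error, so the failed adjustment does not show that these genes rose alike. Gadd45a exceeded Mdm2 by 0.45 ± 0.19 (exact permutation p = 0.0571, adjusted p = 0.171) and Cdkn1a by 0.35 ± 0.29 (exact permutation p = 0.257, adjusted p = 0.309). Cdkn1a exceeded Ccng1 by 0.46 ± 0.27, and Mdm2 exceeded Ccng1 by 0.36 ± 0.16 (exact permutation p = 0.171 and 0.0857). Mdm2 minus Cdkn1a was -0.10 ± 0.19 (exact permutation p = 0.600). Groups overlapped in the 5 pairs other than Gadd45a and Ccng1, and no pair passed after adjustment.

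The 4 induced arrays were not alike in which gene stood highest. Relative to the uninduced mean, Gadd45a (L32591mRNA_g_at) stood at 1.46, 1.62, 1.02 and 1.22 on induced replicates 1 to 4 on the log2 scale. Ccng1 stood at 0.67, 0.72, 0.29 and 0.41 on the same arrays, and so was also higher on replicates 1 and 2 than on 3 and 4. Cdkn1a (U24174_at) stood at 0.75, 0.76, 1.30 and 1.09, the other way round. Mdm2 (rc_AI639488_at) varied least, between 0.76 and 0.99, whereas AA875509_at stood at 1.66, 1.36, 0.73 and 0.26. With 4 arrays these patterns were not tested. The median signal of these arrays was 97.5 and 103.9 on replicates 1 and 2 and 118.7 and 134.9 on replicates 3 and 4.

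**Figure D3:**
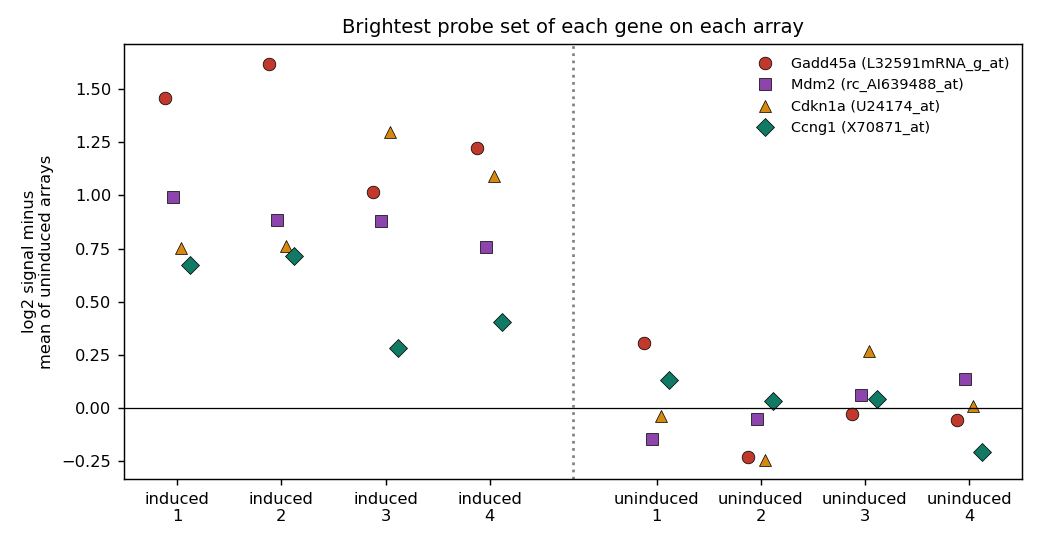
Log2 signal of the brightest probe set of each gene minus its mean over the 4 uninduced arrays (vertical axis), on each of the 8 arrays (horizontal axis). Induced points lie between 0.29 and 1.62. Compared with its own other induced points, Cdkn1a is higher on induced replicates 3 and 4, and Gadd45a and Ccng1 each on induced replicates 1 and 2.

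Genes with a pattern like that of each member were found by the root-mean-square difference over the 8 arrays of log2 values taken relative to the uninduced mean, among 5043 tested probe sets with 1 symbol. The brightest Gadd45a probe set was nearest to Hspb1, a small heat shock protein (0.17 log2 units), S100a4, a calcium-binding protein (0.18), and Dgka, a diacylglycerol kinase (0.21). Mdm2 was nearest to Nrn1, a neurite growth protein (0.074), Ckb, the brain creatine kinase (0.12), and Hspa5, the main chaperone of the endoplasmic reticulum (0.13). Cdkn1a was nearest to Vat1 (0.196), Msn, which links actin to the membrane (0.21), and Gstm1, a glutathione S-transferase (0.21). Ccng1 was nearest to Scd, a fatty acid desaturase (0.073), Gstp1, another glutathione S-transferase (0.075), and Ptp4a2, a phosphatase (0.084). The measure uses each gene's rise as well as its scatter, so a near gene is first of all one that rose by a like amount.

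Other genes of the pathway were read from lists that give 1 probe set per gene, the brightest. These lists, too, were chosen with earlier results of these data known. Over all 3623 genes with such a probe set, 4.31% were called higher and 2.90% lower, at a median log2 difference of -0.05. Of 3 tested p53 regulators, 0 were called: the DNA damage sensor Parp1 differed by -0.20, the retinoblastoma gene Rb1 by -0.38 and Nfkb1 by 0.0081 (median -0.20). Rb1 was above the background controls on 0 induced and 0 uninduced arrays, so the size of its difference depends on the background. Of 8 p53 targets in cell death, 1 was called lower and 0 higher (median 0.06). That gene was the caspase Casp2, at 794.5 ± 107 in induced and 1306.9 ± 56.5 in uninduced cells (SD, n = 4 each; limma adjusted p = 0.0017), and its other probe sets differed by -0.49 and -0.55 and were not called. The caspase Casp6 differed by 0.57, the death inhibitor Bcl2 by -0.20 and the tumour necrosis factor receptor Tnfrsf1a by 0.14, none called.

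Of 8 other p53 targets in growth arrest and DNA repair, 2 were called higher and 1 lower (median 0.10). Gdf15, a stress-responsive cytokine, had 839 ± 415 in induced and 137 ± 16.1 in uninduced cells, and the growth factor Hbegf had 915 ± 121 in induced and 118 ± 36.3 in uninduced cells (SD, n = 4 each). Their log2 differences were 2.41 and 2.92, and since their uninduced signals were near the background controls, these sizes depend on the background. Pcna, the replication clamp that p21 and Gadd45a bind, fell by 0.67 ± 0.12 (limma adjusted p = 0.0037), and by 0.93 on its second probe set. With median centring the differences of Casp2 and Pcna were -0.68 and -0.64, about as large, and neither was called (adjusted p = 0.0624 and 0.132). The p53 target Zmat3, an RNA-binding zinc finger gene, had 305.9 ± 33.1 in induced and 223.7 ± 44.1 in uninduced cells, with no overlap, and was not called (0.46 ± 0.18, limma adjusted p = 0.200). The growth inhibitor Btg1 differed by -0.18 and the mitochondrial superoxide dismutase Sod2 by -0.17.

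Among the cyclins, kinases and inhibitors that act with p21, 4 of 17 tested genes were called lower and 0 higher, at a median of -0.27. Cdk1, the mitotic kinase, fell by 0.79 ± 0.09, to 1192 ± 107 in induced cells, against 2068 ± 66.2 in uninduced cells (SD, n = 4 each; limma adjusted p = 0.00023). Its partner cyclin B1, Ccnb1, fell by 0.64 ± 0.11 (limma adjusted p = 0.0034), and by 0.69 on a second probe set. Cdk4, the kinase of the D cyclins, fell by 0.47 ± 0.11 (limma adjusted p = 0.0202), a call kept in 4 of the 8 fits without 1 array, and Pcna, given above, is the remaining call. Of the others with the lowest p, Ccnd1 differed by 0.35, Ccnd3 by -0.29 and Ccne1 by -0.34, G1 cyclins of which none was called. Cdk2, the partner of the E and A cyclins and a main target of p21, differed by -0.42 on its brightest probe set, which was not called (limma adjusted p = 0.177). A dimmer one, named after its values were seen, had 131.75 ± 72.7 in induced and 300.65 ± 56.8 in uninduced cells (SD, n = 4 each). It fell by 1.28 ± 0.33 (limma adjusted p = 0.0373), so that 5 of the 17 genes had a probe set called lower. This dimmer probe set was above the background controls on 2 of the 4 induced and all 4 uninduced arrays, so the size of its fall depends on the background. With median centring 1 of the 17, Cdk1, was still called lower, and the list's median was -0.24.

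**Figure D4:**
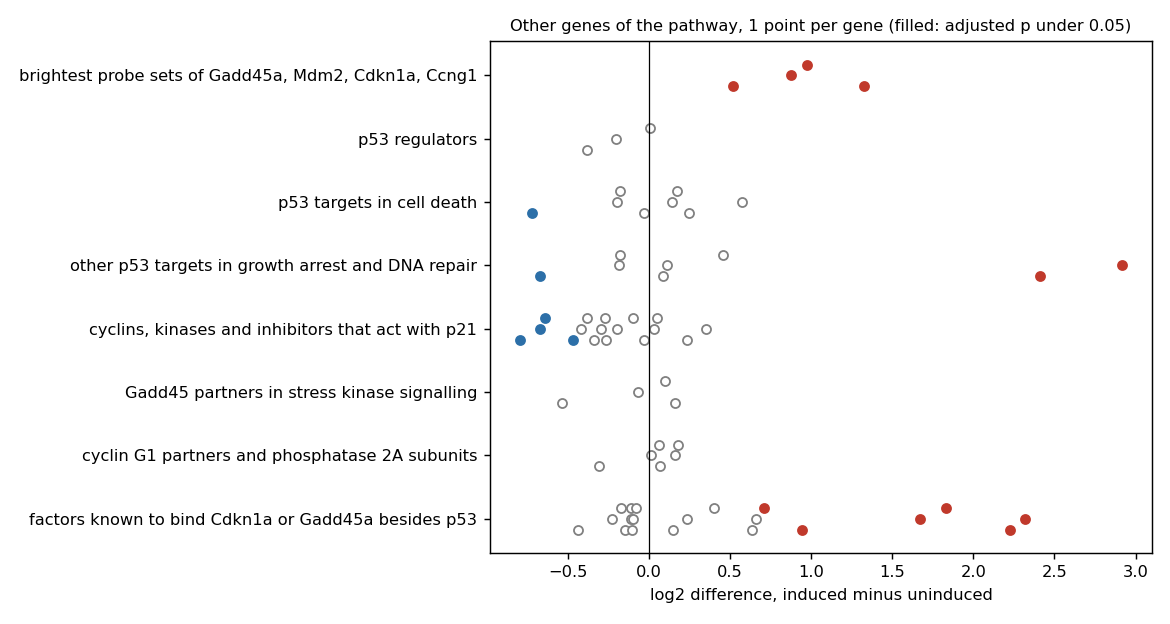
Log2 difference (induced minus uninduced, horizontal axis) of the brightest probe set of each gene in the lists of pathway genes, with the 4 members in the top line; filled points were called (red higher, blue lower) and open points were not. Members and the factors of the bottom line hold most of the higher calls, and the p21 partners hold 4 lower calls and 0 higher.

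The tested stress kinase genes listed with Gadd45a and the tested partners of cyclin G1 were not called by their brightest probe sets. The gene of MAP3K4, the kinase named above, was not among those tested. Of 4 tested genes of stress kinase signalling, 0 were called (median 0.02). The kinase Map3k1 differed by -0.54 (limma adjusted p = 0.0792), the JNK gene Mapk9 by 0.16 and the p38 gene Mapk14 by -0.07. A dimmer Mapk9 probe set, at 28.0 in induced and 92.2 in uninduced cells on average, was called lower. It was above the background controls on 0 induced and 0 uninduced arrays, so the size of its fall depends on the background. The remaining Mapk9 probe set differed by 0.15 and was not called. Of 6 cyclin G1 partners and phosphatase 2A subunits, 0 were called (median 0.06): the regulatory subunits Ppp2r5a and Ppp2r2a differed by -0.31 and 0.18 and the catalytic subunit Ppp2cb by 0.16.

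Factors known to act on Cdkn1a or Gadd45a besides p53 had 6 of 20 tested genes called higher and 0 lower, at a median of 0.19. These were Jun (2.22 ± 0.14), Klf6 (2.32 ± 0.30), Egr1 (1.83 ± 0.12), Atf3 (1.67 ± 0.16), Klf4 (0.71 ± 0.13) and Ddit3 (0.94 ± 0.26). Of the dimmer Egr1 probe sets, M18416_at and rc_AI176662_s_at were also called higher (2.46 and 1.76). U75398_s_at of Egr1 differed by 0.28 and was not called (limma adjusted p = 0.564). A dimmer Klf4 probe set differed by 0.79 and was not called (limma adjusted p = 0.153). Klf4, a zinc finger factor that activates Cdkn1a, read 457.5 ± 22.0 in induced and 277.7 ± 16.1 in uninduced cells (SD, n = 4 each; limma adjusted p = 0.0043). Klf6 averaged 47.1 in uninduced cells, below the background controls, so the size of its rise depends on the background. The Ddit3 call held in 1 of the 8 fits without 1 array. Cebpb, a leucine zipper factor, differed by 0.40 with no overlap (limma adjusted p = 0.0512). Myc, which represses Cdkn1a, differed by 0.63 (limma adjusted p = 0.327) and Stat3 by 0.66 (limma adjusted p = 0.553). Myc was above the background controls on 2 induced and 0 uninduced arrays and Stat3 on 1 and 1, so these 2 sizes depend on the background.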

How the data were processed

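RNA of 4 induced and 4 uninduced samples was read on 8 arrays, and titles set the groups. The deposited values are intensities, 1 linear signal per probe set; the trimmed mean was 500.8 to 500.9 on every array, so they had been scaled before deposit. No source used here names the program that made them. Array number limits the precision. Symbols came from the platform annotation (1 symbol for 7018 probe sets, several for 308, none for 1473); 6994 of the 7018 were found in the RefSeq gene list. A constant of 7 (the 10th percentile, rounded) was added before log2. The 59 controls and 2611 probe sets with a mean under the 30th percentile (36.0) were left out. limma 3.58.1 (R 4.3.3) fitted the 6129 others (intensity trend, Benjamini-Hochberg), checked on simulated arrays. Permutation tests used scipy 1.17.1. Folds include the added 7. Promoters are RefSeq's, GRCr8. Members and lists were chosen with earlier results of these data known. Genes of a list were named if called or among its 3 next lowest p. Alternatives were the added constant, the filter, scaling, trend, replicate block, kept controls and left-out arrays.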

Additional observations from a re-analysis of the deposited data

How the results depend on the processing

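L32591mRNA_at, L32591mRNA_g_at, rc_AI639488_at, U24174_at and L41275cds_s_at were called in all 19 alternatives of the fit, and rc_AI070295_g_at in 18, all but the one without replicate 2 of both groups (adjusted p = 0.101). The number of member probe sets called, 8 of 10, was 5 without replicate 2 of both groups and 6 to 8 without 1 array. Over all probe sets 433 were called, 230 with median centring (72.6% of them higher, against 58.0%), 279 without the intensity trend, 221 without replicate 2 of both groups and 313 to 408 without 1 array. Ccng1 lost its call with median centring (difference 0.56), with no intensity trend (0.52, adjusted p = 0.0883) and without replicate 2 of both groups (0.47), and ranged from 0.45 to 0.60 without 1 array. AA875509_at of Mdm2 passed in 8 of the 19.

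With 1, 16 and 50 added in place of 7, an alternative chosen after the data were seen, the 6 differences between probe sets that were called lost their calls; those with an rc_AI070295 probe set depend on the background. They were -0.61, -0.55 and -0.43 for L32591mRNA_g_at minus L32591mRNA_at, 0.93, 0.99 and 1.05 for L32591mRNA_g_at minus rc_AI070295_at, 1.00, 1.01 and 0.99 for L32591mRNA_at minus rc_AI070295_g_at, 1.54, 1.54 and 1.48 for L32591mRNA_at minus rc_AI070295_at, 0.54, 0.54 and 0.49 for rc_AI070295_g_at minus rc_AI070295_at and 0.85, 0.83 and 0.80 for rc_AI639488_at minus AA108308_s_at. With each of these constants 5 pairs, not 6, stood at the smallest p. Over only probe sets above background on all 8 arrays, also chosen after the data were seen, the differences of -0.59 and 0.84 were no longer called (adjusted p = 0.0714).

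The replicate numbers did not pair the arrays: deviations from the group means of same-numbered arrays correlated at -0.14, 0.06, -0.09 and 0.19 over the tested probe sets. With the replicate number as a block 367 probe sets and 8 member probe sets were called. The differences cannot change with this block, since each replicate number occurs once in each group. Signals near the background controls limit rc_AI070295_at, rc_AI070295_g_at and AA108308_i_at.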
